A study of Aspergillus nidulans with 9 samples.

Results

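The 7 genes studied here belong to the locus for asperfuranone (*afo*), a polyketide of *Aspergillus nidulans*. They are the rows AN1029 (*afoA*), AN1030, AN1031 (*afoB*), AN1032 (*afoC*), AN1033 (*afoD*), AN1034 (*afoE*) and AN1036 (*afoG*) of a table with 10988 rows, and were taken by their identifiers. RNA was sequenced from vegetatively growing mycelium (Vege) of WT, a *veA* deletion (Δ*veA*) and a *laeA* deletion (Δ*laeA*), with 3 libraries per strain and 9 in all. Every culture was grown in liquid glucose minimal medium in the dark for 24 h. The strain list gives *argB* in place of *veA* in Δ*veA*, and *methG* in place of *laeA* in a *methG1* background with *veA* in Δ*laeA*. Each genotype is thus represented by 1 strain. The sources used here do not say if the libraries of 1 strain were grown as separate cultures, so p-values measure only the spread between these libraries, which may be technical.

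Filamentous fungi keep the genes for a secondary metabolite side by side, often with a gene for the transcription factor that switches them on. In *A. nidulans* the *afo* locus is mostly silent in laboratory culture, and forced expression of its activator gene *afoA* turns it on. The carbon chain of asperfuranone is built by a pair of polyketide synthases. The highly reducing synthase AfoG makes the first part, and the non-reducing synthase AfoE extends and cyclizes it. VeA and LaeA meet in the nucleus in the dark, where they are known as regulators of many such clusters.

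Reads on genes ranged from 13396869 to 35755046 per library. Levels are given as CPM, the reads on a gene relative to all reads of its library after TMM scaling. The count of *veA* (AN1052) went against its label, at 111 ± 4.87 CPM in WT but 791 ± 21.3 CPM where the label reads Δ*veA* (SD, n = 3). Every direction below for Δ*veA* therefore belongs to the libraries labelled so. *laeA* (AN0807) fell from 35.8 ± 1.93 in WT to 5.72 ± 0.834 CPM in Δ*laeA*. The marker genes of the deletions were read too. *argB* (AN4409) rose from 80.5 ± 1.27 to 454 ± 11.1 CPM with the label Δ*veA*, and *metG* (AN7051) from 32.3 ± 1.44 CPM to 108 ± 3.22 CPM in Δ*laeA*. The cultures also carried transcripts of genes that mark conidiating cells, though these levels do not show that such cells were present. The summed level of 7 conidiation markers ran from 68.4 to 71.8 CPM in WT, against 27.4 to 28.7 CPM for Δ*veA* and 32.0 to 37.9 CPM for Δ*laeA*. Of these markers 4 fell in Δ*veA* (as did 19.9% of all tested genes) and 3 in Δ*laeA* (14.5%), and none was at 0. *brlA*, the central activator of conidiation, stood at 16.6 ± 1.60, 1.58 ± 0.669 and 1.16 ± 0.363 CPM in the same order. Any part of conidiating cells in the *afo* values was not tested. In such bulk RNA, fewer cells that express a gene and less RNA per cell cannot be told apart.

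Few reads fell on the *afo* genes in every strain, with *afoE* the best covered. Together the 7 genes drew 56, 167 and 103 reads in WT replicates 1 to 3. They drew 165, 98 and 80 reads in Δ*veA*, and 218, 274 and 220 reads in Δ*laeA*. On the CPM scale their sum was 4.07 ± 0.409 for WT, 4.64 ± 0.461 for Δ*veA*, and 12.8 ± 0.863 for Δ*laeA* (SD, n = 3). The Δ*laeA* libraries were thus the highest, and most of what they gained lay in *afoE*. A filter on low counts left 4 of the 7 genes to be tested (*afoB*, *afoC*, *afoD* and *afoE*) among 9481 genes in all, while *afoA*, AN1030 and *afoG* had too few reads. DEGs are genes that changed by over 2-fold with an adjusted p below 0.05.

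**Figure D1:**
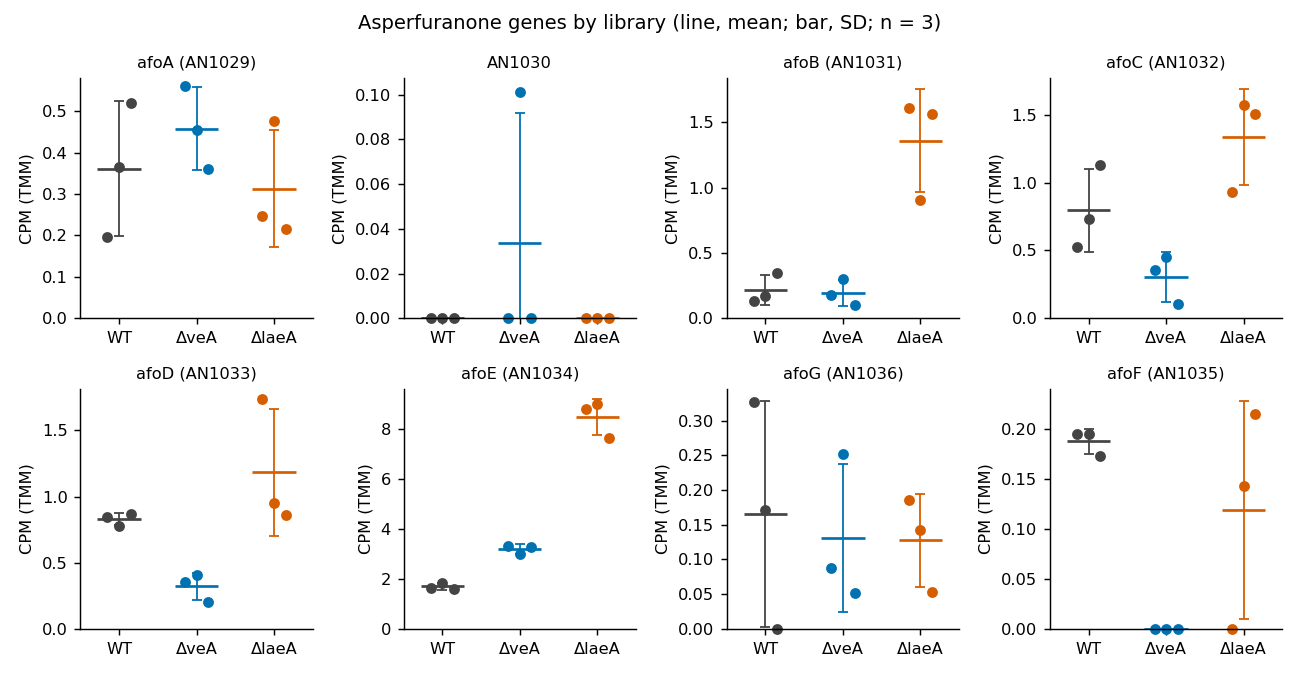
CPM after TMM scaling (y axis, each panel on its own scale) of the 7 genes and of *afoF* in the 3 libraries of WT, Δ*veA* and Δ*laeA*; points are libraries, lines are means and bars are SDs. The Δ*laeA* points of *afoE* and *afoB* lie above all others, and the Δ*veA* points of *afoC* and *afoD* lie below all others.

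*afoE*, the gene for the non-reducing polyketide synthase, rose in Δ*laeA*. It had 1.63, 1.86 and 1.61 CPM in WT replicates 1 to 3, from 25, 76 and 37 reads. The Δ*laeA* libraries had 8.80, 8.99 and 7.64 CPM, from 142, 189 and 142 reads. No Δ*laeA* library overlapped with WT, and the rise was 4.91-fold, or 2.29 on the log2 scale (standard error 0.18). Its adjusted p was 4.08e-13 (quasi-likelihood test of edgeR, Benjamini-Hochberg adjustment, as for every adjusted p below). In Δ*veA*, *afoE* stood between, at 3.33, 2.98 and 3.29 CPM. These 3 libraries were also above every WT library, and the test was passed at 1.86-fold (log2 fold change 0.89, standard error 0.20, adjusted p = 0.000128), which is short of the 2-fold minimum. In this comparison 80.2% of all tested genes had an adjusted p under 0.05, whatever their fold. Its log2 fold change there was 0.84 to 0.99 with 1 library left out. Set directly against each other, Δ*veA* was lower than Δ*laeA* by 2.64-fold (log2 fold change -1.40, standard error 0.17, adjusted p = 6.65e-09).

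*afoG*, the gene for the highly reducing partner synthase, showed no such rise. Reads on it numbered 5, 7 and 0 for WT, 3, 5 and 1 for Δ*veA*, and 3, 3 and 1 for Δ*laeA*. With the reads of a strain summed, its ratio to WT was 0.813 in Δ*veA* (95% exact interval 0.302 to 2.101) and 0.830 in Δ*laeA* (0.277 to 2.29). The interval in Δ*laeA* thus ends below the 4.91-fold rise of *afoE*. These intervals cover counting error only. The ratios also moved with single libraries, from -1.01 to 0.17 on the log2 scale in Δ*veA* (lowest without Δ*veA* replicate 2) and from -0.76 to 0.20 in Δ*laeA* with 1 library left out. In the exact permutation test over libraries the p-values were 0.8 and 0.9 (two-sided), where 0.1 is the smallest that 3 libraries against 3 allow.

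The genes for the tailoring enzymes AfoC, a predicted esterase, and AfoD, an FAD-dependent hydroxylase, fell in Δ*veA*. Both passed the filter on low counts through WT and Δ*laeA* alone, with no Δ*veA* library over its cut. *afoC* stood at 0.522, 0.733 and 1.13 CPM in the WT libraries and at 0.353, 0.454 and 0.103 CPM in those of Δ*veA*, or 64 reads against 23. The groups did not overlap, and the fall was 2.56-fold (log2 fold change -1.36, standard error 0.47, adjusted p = 0.00999, edgeR's quasi-likelihood test). This call rested on single libraries. Without WT replicate 3 the log2 fold change was -1.07 (adjusted p = 0.0714), and without Δ*veA* replicate 3 it was -1.02 (adjusted p = 0.0570), so that 1 of the 7 genes was left as a DEG in place of 2 (all DEGs made up 33.6% of the tested genes in this comparison, and lower ones 19.9%). Over all alternatives the adjusted p ran from 0.00231 to 0.0714. *afoD* stood at 0.848, 0.781 and 0.868 CPM in the WT libraries and at 0.353, 0.404 and 0.205 CPM in those of Δ*veA*, or 65 reads against 24. Its fall was 1.32 on the log2 scale ( standard error 0.45, adjusted p = 0.00821), and it was kept with each library left out in turn, at -1.46 to -1.13.

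In Δ*laeA* neither of these genes passed the test. *afoC* was at 0.930, 1.57 and 1.51 CPM, or 0.74 above WT on the log2 scale (standard error 0.38, adjusted p = 0.0827), and the lowest of these libraries lay within the range of WT. Without WT replicate 3 it was a DEG at 1.03 (adjusted p = 0.0449, against 0.0449 to 0.322 over all alternatives). *afoD* had 1.74, 0.952 and 0.861 CPM, and the difference of 0.49 on the log2 scale (standard error 0.38, adjusted p = 0.245) owed much to replicate 1. Without that library it was 0.14.

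*afoF* (AN1035), the gene for a FAD-linked oxidoreductase of the same pathway, lies between *afoE* and *afoG* and was read beside them. It drew 3, 8 and 4 reads in WT, 0 in each of the 3 Δ*veA* libraries, and 0, 3 and 4 in Δ*laeA*. A count of 0 allows up to 3 reads over the Δ*veA* libraries together. With that limit, and the WT reads taken as exact, its level was at least 4.61-fold lower than in WT. With the counting error of the 15 WT reads included, the 95% exact interval of the ratio to WT reached up to 0.302. The exact permutation p-value over libraries was 0.1 (two-sided), the smallest possible. *afoF* was left out of the main test because of its low counts. With no filter its adjusted p in Δ*veA* was 0.00389 from edgeR's quasi-likelihood test, and 0.603 in Δ*laeA*, where the ratio of summed reads was 0.664 (95% exact interval 0.229 to 1.73).

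*afoB*, which encodes an efflux pump, rose in Δ*laeA*. The WT libraries were at 0.130, 0.171 and 0.347 CPM, from 2, 7 and 8 reads, and those of Δ*laeA* at 1.61, 0.904 and 1.56 CPM, from 26, 19 and 29 reads. All 3 Δ*laeA* libraries were above WT, and the rise was 6.09-fold (log2 fold change 2.61, standard error 0.49, adjusted p = 1.68e-05, edgeR's quasi-likelihood test). The Δ*laeA* libraries alone carried *afoB* past the filter on low counts. With no filter the log2 fold change was the same 2.61, and with 1 library left out it was 2.36 to 3.04. In Δ*veA* it had 6, 6 and 2 reads, which overlapped with WT, at -0.17 on the log2 scale (standard error 0.67, adjusted p = 0.824). AN1030, whose role is not given in the sources used here, drew 2 reads in Δ*veA* replicate 2 and 0 in the remaining 8 libraries. Over the 3 libraries of a strain, a count of 0 allows up to 0.0378 CPM in WT and 0.0538 CPM in Δ*laeA*.

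*afoA*, the gene for the transcription factor of the cluster, did not differ detectably between the strains. Reads on it numbered 3, 15 and 12 for WT, 19, 9 and 7 for Δ*veA*, and 4, 10 and 4 for Δ*laeA*. On the CPM scale the WT libraries were at 0.196, 0.366 and 0.521, those of Δ*veA* at 0.560, 0.454 and 0.360, and those of Δ*laeA* at 0.248, 0.476 and 0.215, so all groups overlapped. The ratio of summed reads to WT was 1.26 in Δ*veA* (95% exact interval 0.754 to 2.13) and 0.854 in Δ*laeA* (0.448 to 1.58), and that of Δ*veA* to Δ*laeA* was 1.48 (0.816 to 2.78). The exact permutation p-values (two-sided, 0.1 the smallest possible) were 0.5, 0.8 and 0.3. With no filter, edgeR's quasi-likelihood test gave adjusted p-values of 0.634, 0.777 and 0.468. The counting interval of *afoA* in Δ*laeA* ends below the rises of *afoE* and *afoB* there. A smaller change of *afoA* was not detectable at this depth.

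Counted over the locus, 2 of the 4 tested genes were DEGs in Δ*veA*, both lower (19.9% of all tested genes were lower DEGs, and 33.6% were DEGs in either direction). In Δ*laeA*, 2 of 4 were DEGs, both higher (9.9% of all tested genes were higher DEGs, and 24.4% DEGs in either direction). All 4 were lower in Δ*veA* than in Δ*laeA* when the mutants were set against each other (11.6% of all tested genes, with 18.4% in either direction). In this last comparison the libraries of the mutants did not overlap for any of the 4 genes. How common this was over all tested genes was not counted, so it is no support for a direction. The fitted difference of *afoB*, which was tested only because of its level in Δ*laeA*, was the widest (log2 fold change -2.77, standard error 0.50, adjusted p = 1.23e-05). *afoC* was next, 4.28-fold lower (log2 fold change -2.10, standard error 0.45, adjusted p = 0.000139). *afoD* followed with -1.81 on the log2 scale (standard error 0.44, adjusted p = 0.000567, edgeR's quasi-likelihood test throughout). The median log2 fold change of the 4 genes was -0.74 for Δ*veA*, 1.52 for Δ*laeA* and -1.95 between the mutants, against 0.0012, -0.0041 and 0.027 over all tested genes. These counts and medians take in *afoB*, which no WT or Δ*veA* library carried past the filter, and *afoC* and *afoD* passed it through WT and Δ*laeA* alone, so they describe the genes that could be tested and are no support for a direction. Both comparisons with WT share the same WT libraries. With 4 tested genes that lie side by side, these counts describe the locus and nothing more.

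**Figure D2:**
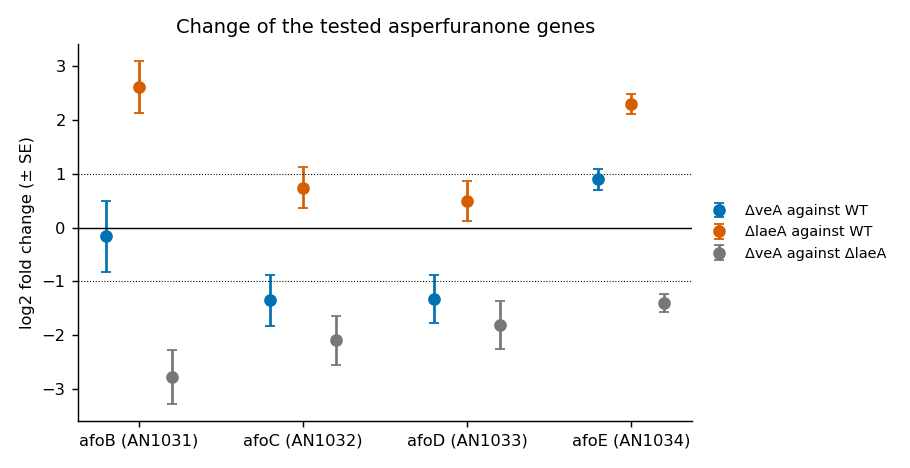
Log2 fold change (y axis, with standard error bars) of the 4 tested genes in Δ*veA* against WT, Δ*laeA* against WT and Δ*veA* against Δ*laeA*; dotted lines mark 2-fold. *afoE* is above 0 in both mutants (0.89 and 2.29), *afoC* and *afoD* are below -1 in Δ*veA*, and all 4 grey points are below -1.

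The make-up of the reads at the locus changed along with these genes. *afoE* took 35.9% to 45.5% of the reads on the 7 genes per WT library, against 60.2% to 80.0% for Δ*veA*. For Δ*laeA* it took 66.4% of the pooled reads, with little spread between libraries. The share of *afoC* was 14.3% to 25.2% per WT library, at most 9.18% for Δ*veA* and 6.88% to 12.7% for Δ*laeA*. *afoD* took 19.2% to 23.2%, 5.00% to 8.16% and 7.27% to 12.8%. The *afoE* shares of both mutants were thus above WT, and those of *afoC* and *afoD* below it, in every library. In Δ*laeA* these lower shares came with mean CPM that was no lower than in WT (1.34 against 0.794 for *afoC* and 1.18 against 0.832 for *afoD*), since the reads on all 7 genes together were more. For *afoB* the share was 3.57% to 7.77% per WT library, at most 6.12% for Δ*veA* and 6.93% to 13.2% for Δ*laeA*. For *afoA* it was 5.36% to 11.7%, 8.75% to 11.5% and 1.82% to 3.65%, so the Δ*laeA* libraries were the lowest in share, while the CPM of *afoA* overlapped with WT. The 95% Wilson intervals of single libraries were wide, as from 32.4% to 57.6% for *afoE* in WT replicate 1, and they cover counting error only. These shares are of reads and take no account of gene length, so they say nothing of the level of one gene against another.

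**Figure D3:**
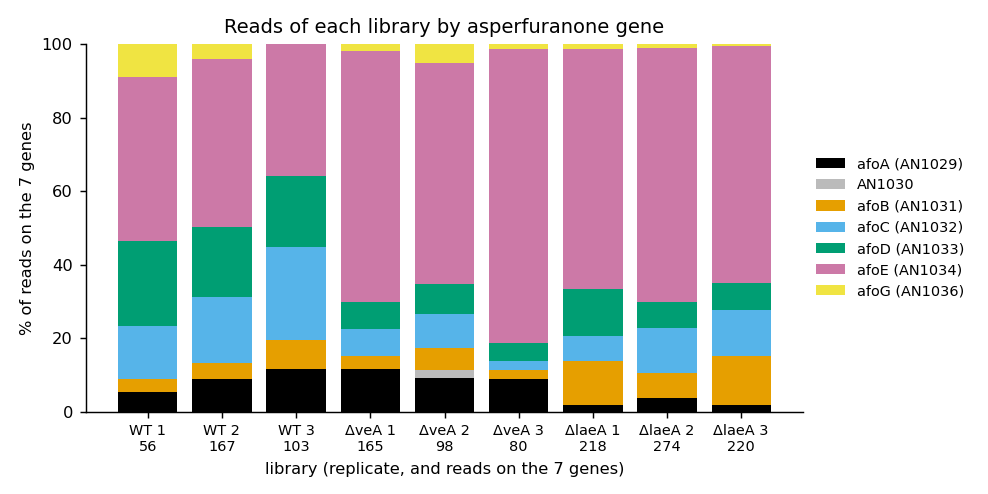
Share of the reads on the 7 genes that fell on each gene (y axis, percent) in each of the 9 libraries, with the number of reads under each bar. *afoE* takes at most 45.5% in WT and at least 60.2% in the mutant libraries.

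For *afoE* and *afoA* the replicates of a strain differed little more than counting noise allows. For *afoE* the chi-square per degree of freedom between replicates was 0.332 for WT, 0.254 for Δ*veA*, and 1.19 for Δ*laeA*. For *afoA* it was 0.534 to 1.30. The highest value was 3.45 for *afoD* in Δ*laeA*, where replicate 1 was above the others. The second was 2.39 for *afoC* in WT, where replicate 3 was the highest and replicate 1 the lowest. Next came 2.29 for *afoB* in Δ*laeA* and 2.09 for *afoC* in Δ*veA*.

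The neighbours of the cluster were read in the order of the RefSeq gene table (assembly ASM1142v1), which also places *veA* on this chromosome, with 20 genes between it and *afoG*. Around the cluster, from AN1009 to AN1062 and leaving out *veA* and the *afo* genes, 47 genes were tested. In Δ*veA*, 6 of them were higher and 10 lower DEGs (16 of 47, beside 33.6% of all tested genes), with a median log2 fold change of -0.17. In Δ*laeA* 4 were higher and 7 lower (11 of 47, beside 24.4%), also with a median of -0.17. Between the mutants 0 were higher and 3 lower DEGs in Δ*veA* (3 of 47, beside 18.4% of all tested genes in either direction), with a median of -0.041. The 3 genes were AN1015, AN1016 and AN1028.

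Beside *afoA* stands AN1028, which had 9.92 ± 0.738 CPM for WT, 3.75 ± 0.136 for Δ*veA*, and 7.91 ± 0.560 for Δ*laeA* (SD, n = 3). It fell in Δ*veA* by 1.41 on the log2 scale (standard error 0.14). In Δ*laeA* its log2 fold change was -0.34, which is not a DEG. At the other end, beside *afoG*, AN1037 was far more abundant, with 348 ± 28.4, 370 ± 13.5 and 416 ± 3.25 CPM, and it was a DEG in neither mutant (0.09 and 0.26). The nearest DEGs beyond these were AN1026, which rose in both mutants (1.36 and 1.45), and AN1041, which rose in Δ*laeA* (1.69) and had 0.81 in Δ*veA*. The largest change from WT in this stretch was that of AN10144, with -4.07 in Δ*veA* and -3.22 in Δ*laeA*. Its levels were low, at 1.70 CPM in WT, 0.112 CPM in Δ*veA* and 0.179 CPM in Δ*laeA*. Only WT carried AN10144 past the filter on low counts, so its calls are no support for a direction. It is among the lower DEGs counted above in both mutants.

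**Figure D4:**
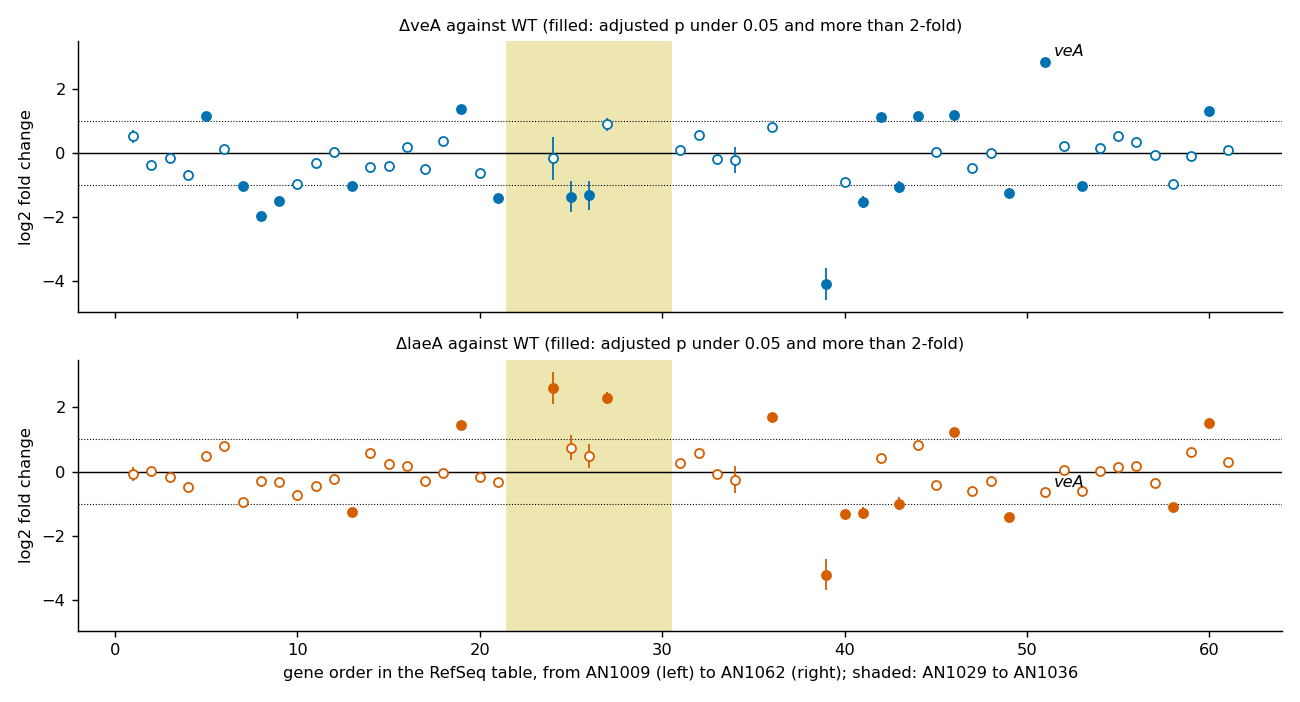
Log2 fold change (y axis, with standard error bars) of the tested genes from AN1009 to AN1062 in the order of the RefSeq table (x axis), in Δ*veA* (top) and Δ*laeA* (bottom); the *afo* stretch is shaded and filled points are DEGs. In Δ*laeA*, *afoB* and *afoE* (2.61 and 2.29) are the highest points of the stretch, and in Δ*veA* the highest point is *veA* itself (2.84).

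A second locus is tied to asperfuranone in *A. nidulans*. Forced expression of *scpR* (AN3492), a regulator gene beside the nonribosomal peptide synthetase genes *inpA* and *inpB*, is known to switch on both clusters. *scpR* drew 1, 17 and 4 reads from WT, 2, 3 and 0 from Δ*veA*, and 0, 5 and 0 from Δ*laeA*. Its ratio of summed reads to WT was 0.246 in Δ*veA* (95% exact interval 0.0728 to 0.666) and 0.324 in Δ*laeA* (0.0957 to 0.876), but 17 of the 22 WT reads came from replicate 2. The exact permutation p-values over libraries were 0.2 and 0.3 (two-sided), with 0.1 the smallest possible. *inpA* (AN3495) had 19, 5 and 5 reads over the libraries of WT, Δ*veA*, then Δ*laeA*. *inpB* (AN3496) was a DEG in neither mutant, with log2 fold changes of 0.09 and 0.95. Of the 7 genes from AN3490 to AN3496, 4 were tested. AN3490, AN3491 and AN3493 were lower DEGs in Δ*veA* (-3.51, -3.64 and -1.58), and the first and second of these in Δ*laeA* too (-3.15 and -2.81). Reads on AN3490 numbered 145 over the WT libraries and 11 over those of each mutant. WT alone carried it past the filter on low counts, so its calls are no support for a direction. AN3491 had 409, 31 and 42 reads over the libraries of WT, Δ*veA* and Δ*laeA*. Over all tested genes, lower DEGs made up 19.9% for Δ*veA* and 14.5% for Δ*laeA*.

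The other polyketide synthase genes moved in both directions. Of 23 other synthase genes listed, 21 were tested, of which 5 were higher and 7 lower DEGs in Δ*laeA* (median log2 fold change -0.59; DEGs were 24.4% of all tested genes). In Δ*veA* 3 were higher and 11 lower (median -1.34), beside 33.6% of all tested genes in either direction. The gene whose value is the median in both mutants, AN8209 (*wA*, spore pigment), is also 1 of the 7 conidiation markers. The largest rises in Δ*veA* were those of AN6791, AN2032 and AN3612 (2.56, 1.84 and 1.57), and the largest falls those of AN8383, AN6431 and AN0150 (-6.90, -6.73 and -6.67). In Δ*laeA* the largest rises were 2.00 for AN3612, 1.86 for AN2032 and 1.72 for AN8412, all below the 2.29 of *afoE*, and the largest falls were -4.79 for AN0150, -4.58 for AN8383 and -3.85 for AN7909. AN8383 had 180, 1 and 5 reads over the libraries of WT, Δ*veA* and Δ*laeA*. The sizes of its falls, and so its rank, are poorly fixed. It passed the filter on low counts through WT alone, so its calls are no support for a direction. AN3612 had 24, 67 and 68 reads in the same order. It passed that filter through the mutants alone, so its rises are no support for a direction either. Between the mutants, 2 of the 21 were higher and 7 lower DEGs in Δ*veA*, beside 18.4% of all tested genes.

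The levels of *afoE* were lowest in WT, then Δ*veA*, then Δ*laeA*, and many genes correlated with them. Over the 9 libraries, the genes whose log2 CPM followed *afoE* most closely were AN10742, AN1866, AN3762, AN5842 and AN4592, with Pearson's r of 0.996 for the first and 0.994 for the last. AN1866 had 8.83 ± 1.03 CPM for WT, 16.0 ± 0.245 for Δ*veA*, and 50.5 ± 2.21 for Δ*laeA* (SD, n = 3). An r over 0.9 was reached by 543 of 9480 genes. The points share 3 strains and their library scaling, so r mostly reads 3 means. An r over 0.9 does not by itself show the same order of the strains. The neighbours of *afoE* in the cluster had a lower r. They also had far fewer reads, and any part of counting noise in this was not tested. *afoB* had an r of 0.829 and ranked 878th, and *afoC* and *afoD* had 0.390 and 0.330. The reads of *afoA* were too few for such a comparison.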

How the data were processed

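Libraries were strand-specific and paired-end. Per the submitters' notes, the authors mapped reads with HISAT2 2.1 and counted them per gene with featureCounts 1.5.0. They deposited raw read counts without normalization, once per library and once as a joint table with equal values in all 9. Whether counting used strand is not given in the sources used here, so antisense reads cannot be told apart. Counts were scaled by TMM and filtered with filterByExpr of edgeR 4.0.16 in R 4.3.3, which left 9481 of 10988 rows. A single robust quasi-likelihood fit by genotype took in all 9 libraries, and p-values were adjusted over all tested genes. Standard errors came from the F statistic. DEGs followed the study's thresholds, a 2-fold change with an adjusted p below 0.05. Genes left out by the filter were compared by summed reads with exact binomial 95% intervals. The procedure was tested on simulated data. Replicate numbers did not pair the libraries, since 1 of 9 same-numbered pairs had a correlation of deviations over 0.1 (-0.040 to 0.101).

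Alternatives were DESeq2 1.42.0, RLE factors, library totals alone, no filter, only the groups compared, a replicate block, no fold minimum, and each library left out. Members and lists were chosen with earlier results of these data known. Genes named are the 7 members, *afoF*, *scpR*, *inpA*, *inpB*, strain checks, the DEGs of the AN1009 to AN1062 stretch nearest to the cluster or most changed, the 3 largest rises and falls among synthase DEGs, and the 5 genes most like *afoE*. AN1037, AN8209, AN3490, AN3491, AN3493 and *brlA* were named after their values were seen. RefSeq table ASM1142v1 is not the assembly the study cites and gave only gene order. Per-length levels and sequences were not analysed here. Plots used Python with matplotlib 3.10.9.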

Additional observations from a re-analysis of the deposited data

How the results depend on the processing

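Of 179 alternative values for the 4 tested genes in 3 comparisons, 174 kept their direction and their side of the thresholds. The number of DEGs among the 7 genes was 1 to 2 in Δ*veA*, 2 to 3 in Δ*laeA* and 4 between the mutants with 1 library left out. The value of 1 came without WT replicate 3 and without Δ*veA* replicate 3, where *afoC* was lost. The log2 fold change of *afoB* in Δ*veA*, not past the test, ran from -0.52 to 0.26 with 1 library left out and was above 0 (0.26 and 0.069) without these same libraries, and it was not tested with only the groups compared, since the filter removed it. With a replicate block the numbers of DEGs were 2, 2 and 4, and the block changed no call; replicate numbers do not pair the libraries. Without a fold minimum they were 3, 2 and 4. Library totals alone shifted the median of all genes to -0.26 in Δ*veA* and -0.33 in Δ*laeA*, and the log2 fold changes of *afoE* to 0.63 and 1.97. At these depths, changes of *afoA*, *afoG* and AN1030 short of their intervals cannot be seen.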
